A study of Mus musculus with 4 samples.

Results

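The islands described here are those of 3 stretches of the mouse genome that hold clusters of zinc finger protein (Zfp) genes, on build mm9: 145000000 to 147500000 of chromosome 4, 65500000 to 68500000 of chromosome 13 and 175000000 to 178000000 of chromosome 2. Islands were taken by position, not by their values, while the stretches themselves were picked with earlier results of these data known. An island is a broad stretch in which ChIP-seq reads for histone H4 acetylated at lysine 16 (H4K16ac) exceeded the background by the authors' call, and an island belonged to a cluster if it overlapped the stretch. Of 88848 islands in both lists, 259 did: 202 of the 40570 called in embryonic stem cells (ESC) and 57 of the 48278 called in neural progenitor cells (NPC). The ESC were the undifferentiated 46c line, which carries GFP under control of the Sox1 gene, and the NPC were derived from the same line over 5 days with NB27 and Neuro2 supplements and sorted for GFP. Both groups thus come from a single cell line, and the sort keeps cells in which the Sox1 reporter is on. Chromatin was digested with MNase, each cell type gave 1 H4K16ac library with the same antibody lot, and the 2 input libraries were not analysed here.

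KRAB zinc finger proteins form a large family of transcription factors whose finger arrays bind DNA, in many cases inside transposable elements. Their KRAB domain recruits the corepressor TRIM28, and with it SETDB1, the enzyme that places trimethylation on histone H3 lysine 9. Their genes arose by repeated local duplication and lie in clusters, several of which carry that repressive mark themselves. H4K16ac is placed mainly by the acetyltransferase MOF (KAT8) and is found at active genes and enhancers in ES cells. The chromosome 13 cluster is known for Rsl1, a KRAB zinc finger gene that controls sex-limited genes of the liver.

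Genes of mm9 were not used here, so no island was placed on a gene, and neither the content of the 3 stretches nor the identity of the cells could be checked through marker genes. The names and order of the genes came from RefSeq on another build, GRCm38.p6. There, the longest run of Zfp-named genes held 16 genes on chromosome 4 (Zfp990 to Zfp933) and 24 on chromosome 13 (Zfp640 to Zfp273). On chromosome 2 it held 9 (Zfp968 to Zfp931). Between the Zfp genes lay 2, 7 and 17 other coding genes on chromosomes 4, 13 and 2. In the 250 bases upstream of the start, the median Zfp gene was 97.2% identical to its most alike neighbour in the chromosome 2 run, 83.2% in the chromosome 4 run and 65.2% in the chromosome 13 run. Over 3294 other coding genes of these chromosomes, each set beside its 10 neighbours on either side, the median was 49.6%. The split was by name: genes inside the runs without a Zfp name were not left out of these other genes. The most alike pair of each run is printed here, as 250 upstream bases from RefSeq, to show how alike the copies are. A best match of at least 90% was found for 7 of 9 Zfp genes on chromosome 2, 2 of 12 on chromosome 4 and 0 of 21 on chromosome 13, against 3.95% of the other coding genes. Capitals mark bases that differ between the 2 members of a pair. On chromosome 2 the pair was identical and is printed once.
Zfp966 and Zfp967: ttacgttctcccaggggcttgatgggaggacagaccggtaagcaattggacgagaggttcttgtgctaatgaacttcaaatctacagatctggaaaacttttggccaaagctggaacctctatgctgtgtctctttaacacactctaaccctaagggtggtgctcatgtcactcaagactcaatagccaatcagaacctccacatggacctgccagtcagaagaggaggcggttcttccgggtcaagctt
Zfp600: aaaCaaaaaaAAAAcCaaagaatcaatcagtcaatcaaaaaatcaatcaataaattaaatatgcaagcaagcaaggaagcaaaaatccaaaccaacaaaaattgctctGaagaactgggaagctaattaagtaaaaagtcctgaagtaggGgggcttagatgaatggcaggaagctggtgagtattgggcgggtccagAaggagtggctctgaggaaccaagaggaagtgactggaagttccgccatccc
Zfp979: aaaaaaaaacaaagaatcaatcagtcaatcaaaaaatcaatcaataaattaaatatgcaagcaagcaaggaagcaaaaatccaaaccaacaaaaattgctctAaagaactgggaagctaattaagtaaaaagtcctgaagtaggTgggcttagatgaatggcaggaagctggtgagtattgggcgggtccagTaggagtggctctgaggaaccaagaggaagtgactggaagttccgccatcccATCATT
Zfp429: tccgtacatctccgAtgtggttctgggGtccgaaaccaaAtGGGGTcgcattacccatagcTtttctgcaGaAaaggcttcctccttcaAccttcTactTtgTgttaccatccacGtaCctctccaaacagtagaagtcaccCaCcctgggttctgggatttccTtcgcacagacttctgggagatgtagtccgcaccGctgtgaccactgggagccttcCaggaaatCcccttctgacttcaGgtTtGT
Zfp456: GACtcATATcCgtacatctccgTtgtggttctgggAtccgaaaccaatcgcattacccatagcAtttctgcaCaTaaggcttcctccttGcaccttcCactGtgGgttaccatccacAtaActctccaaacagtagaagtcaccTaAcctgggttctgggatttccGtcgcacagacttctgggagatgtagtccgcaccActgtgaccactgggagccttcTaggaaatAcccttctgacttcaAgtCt
The Zfp600 and Zfp979 sequences were 94% identical, and those of Zfp429 and Zfp456 85.6%. How reads that match several copies were treated is not given in the sources used here, and the part of such copies in the values that follow was not tested. Both lists came from the same aligner and build.

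ES cells had many H4K16ac islands across the Zfp clusters, and most of these had no called counterpart in neural progenitors. Over the 8.5 Mb of the 3 clusters, 202 ESC islands covered 665 kb and 57 NPC islands covered 296 kb. This made 23.8 ESC islands per Mb (95% Poisson interval 20.6 to 27.3) and 6.71 NPC islands per Mb (5.08 to 8.69). The rest of the 3 chromosomes moved the other way, from 15.99 islands per Mb in ESC to 19.7 in NPC. Each cell type had a single library, so no difference between ESC and NPC has a replicate check or a test. Intervals treat islands as independent draws and do not cover variation between cultures.

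Each cluster held fewer NPC than ESC islands. The chromosome 13 cluster had 86 ESC and 13 NPC islands, a ratio NPC over ESC of 0.151 (0.0774 to 0.272). On chromosome 4 there were 67 and 28 islands, a ratio of 0.418 (0.259 to 0.659). On chromosome 2 there were 49 and 16, a ratio of 0.327 (0.173 to 0.584). The intervals of the 3 clusters overlapped each other, those of chromosomes 13 and 4 only from 0.259 to 0.272. Such overlap does not show the ratios to be alike, and differences between clusters were not tested. Outside the clusters the same ratio was 1.24, 1.16 and 1.27 on chromosomes 4, 13 and 2, so that each cluster lay below 1 where the rest of its chromosome lay above it.

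Set beside the rest of their chromosomes as a whole, the clusters were rich in ESC islands on chromosomes 4 and 13. By the same measure they were poor in NPC islands on all 3. Among like-sized windows, described below, the chromosome 4 cluster lay near the middle in NPC islands. In ESC the chromosome 4 cluster had 26.8 islands per Mb against 15.8 in the rest, 1.70 times as many. The chromosome 13 cluster had 28.7 against 15.2, 1.89 times as many. On chromosome 2 the cluster was like the rest in number, with 16.3 islands per Mb (12.1 to 21.6) against 16.7. In NPC the 3 clusters had 0.573, 0.246 and 0.252 times the islands per Mb of the rest of chromosomes 4, 13 and 2. The ESC excess was smaller beside the nearby sequence: relative to the 5 Mb on each side, the 3 clusters together had 1.15 times the ESC islands per Mb, compared with 1.49 times beside the rest of the chromosomes. Their ESC-covered share was 1.03 times that of the rest of the chromosomes and 0.657 times that of these 5 Mb, so the direction turned. In NPC both ratios lay well below 1 in either comparison.

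Windows as long as the cluster, tiled along the same chromosome, placed each cluster among like stretches. On chromosome 13 the NPC over ESC ratio of island numbers was the lowest of 38 windows, and the lowest value among the other 37 was 0.375. On chromosome 4 it ranked 11 from the bottom of 60 windows, and on chromosome 2 it ranked 6 from the bottom of 59. The other windows with lower ratios held few ESC islands, 6 to 24 in the 10 windows of chromosome 4 and 12 to 27 in the 5 of chromosome 2. On chromosome 4, the 9 other windows with at least as many ESC islands as the cluster held 68 to 124 NPC islands, against 28 in the cluster. On chromosome 13 there were 3 such windows with 35 to 125 NPC islands, against 13. On chromosome 2 there were 23 with 48 to 181, against 16. In number of NPC islands alone, the chromosome 4 cluster ranked 27 from the bottom of 60 windows. The median of the others was 44. The chromosome 13 cluster ranked 5 from the bottom of 38 and the chromosome 2 cluster 11 from the bottom of 59. By share of bases covered in NPC, the ranks from the bottom were 30, 5 and 21 on chromosomes 4, 13 and 2.

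**Figure D1:**
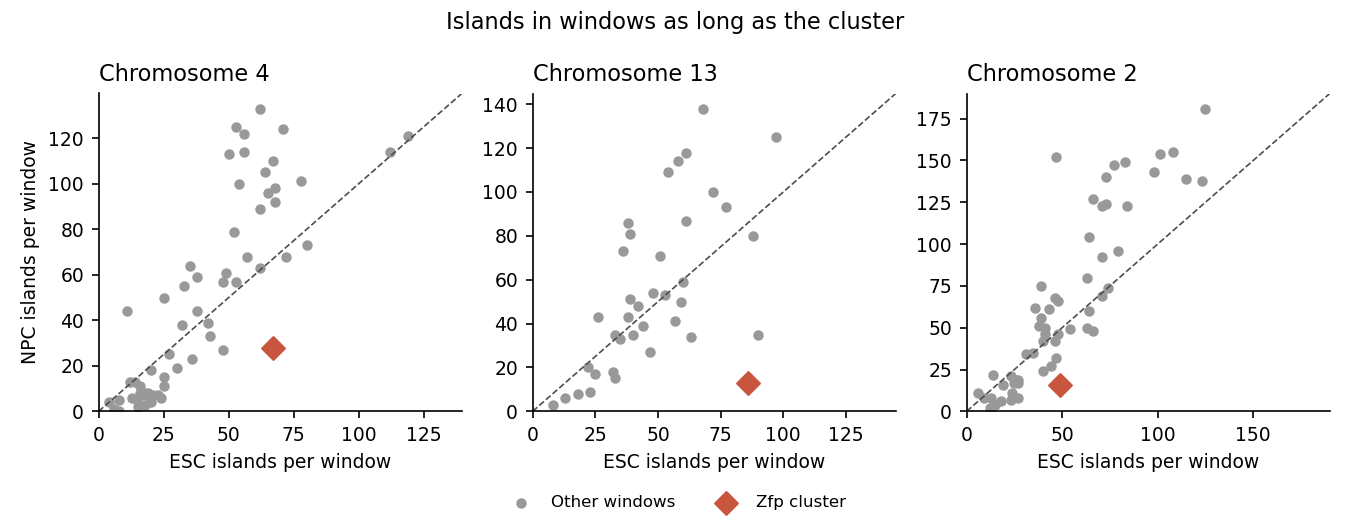
Number of ESC islands (horizontal axis) and NPC islands (vertical axis) in windows of the length of each cluster, tiled along its own chromosome; the diamond is the Zfp cluster, grey points are the other windows and the dashed line marks equal numbers. The diamonds lie at 67 and 28 on chromosome 4, 86 and 13 on chromosome 13, and 49 and 16 on chromosome 2, all below the line.

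The share of bases covered differed more between the clusters than the number of islands did. On chromosome 4, ESC islands covered 14.2% of the cluster, 1.81 times the 7.85% of the rest, and NPC islands covered 6.37% against 13.9%. On chromosome 13 the values were 7.48% against 5.67% in ESC and 1.09% against 8.67% in NPC. On chromosome 2, ESC islands covered 2.85% of the cluster, 0.325 times the 8.75% of the rest, and NPC islands covered 3.48% against 14.6%. Chromosome 2 was thus the one cluster in which NPC islands covered more bases than ESC islands, a direction set by its last 250 kb.

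NPC islands of the chromosome 4 and 2 clusters gathered at one end. On chromosome 4, the last 250 kb held 18 of 28 NPC islands and 80.9% of the NPC-covered bases. There, NPC islands covered 51.5% of the bases and ESC islands 27.8%. On chromosome 2, the last 250 kb held 10 of 16 NPC islands and 86.8% of the NPC-covered bases, at 36.2% covered in NPC and 6.48% in ESC. In the RefSeq order the chromosome 4 run of Zfp genes is followed by Miip, Fv1, a restriction gene against murine leukaemia virus, and Mfn2, a mitochondrial fusion protein. The chromosome 2 run is followed by Phactr3, Sycp2, a protein of the synaptonemal complex, and Ppp1r3d. Whether the last 250 kb reach into these genes was not tested, since the builds differ.

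Without the last 250 kb of each cluster, a setting chosen after the values were seen, 189 ESC and 29 NPC islands remained in 7.75 Mb. ESC islands then covered 7.48% of the bases and NPC islands 0.994%, a 7.53-fold difference. On chromosome 4 there were 58 ESC and 10 NPC islands, covering 12.7% and 1.35%. On chromosome 2 there were 45 and 6, covering 2.52% and 0.502%, so that the direction of coverage turned. The chromosome 13 cluster had no island of either list in its last 250 kb, and its numbers stayed at 86 and 13. The ESC over NPC ratio of numbers was then 7.50 on chromosome 2, 6.62 on chromosome 13 and 5.80 on chromosome 4, so that chromosome 13 no longer had the highest of the 3.

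Along the clusters, ESC islands began in nearly all windows, and NPC islands in 6 of 10 on chromosome 4, 4 of 12 on chromosome 13 and 4 of 12 on chromosome 2. On chromosome 13, each of the first 7 windows of 250 kb held 9 or 10 ESC islands, and the first 6 held no NPC island. The 13 NPC islands of this cluster all began in the 4 windows between 1500 and 2500 kb from its start. On chromosome 4, between 500 and 1500 kb, 4 windows held 5 to 8 ESC islands each and no NPC island. On chromosome 2, the first 7 windows held 1 to 6 ESC islands each and no NPC island. The median gap between neighbouring ESC islands was 28.2 kb on chromosome 4, 23.2 kb on chromosome 13 and 53.6 kb on chromosome 2, against 20.2, 23.6 and 19.0 kb in the rest of these chromosomes.

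The longest stretches without an NPC island at the clusters were among the autosomal stretches of this kind that held the most ESC islands. The chromosome 13 stretch, 65343001 to 67033200, begins upstream of the cluster and runs for 1690.2 kb with 60 ESC islands inside, the largest number among 48151 stretches between neighbouring NPC islands on the autosomes. These ESC islands covered 163000 bp, also the most among those stretches. On chromosome 4, 145406201 to 146603800 (1197.6 kb) held 31 ESC islands with 132800 bp and ranked 4. On chromosome 2, 174964601 to 176864200 (1899.6 kb) held 27 ESC islands with 40600 bp and ranked 5. By ESC-covered bases the chromosome 4 stretch also ranked 5, but the chromosome 2 stretch ranked 51. By length alone the 3 stretches ranked 113, 193 and 82. In the reverse direction, the longest stretches without an ESC island that lay wholly inside the clusters held few NPC islands. They measured 365.2 kb on chromosome 2, 195.4 kb on chromosome 13 and 105.8 kb on chromosome 4, with 0, 1 and 0 inside. A shorter one on chromosome 4 held the NPC islands that begin at 147246601, 147255801 and 147263801. At the ends, a stretch of 230.8 kb without an ESC island on chromosome 2 (177910601 to 178141400) held 9 NPC islands, and one of 416.4 kb on chromosome 13 (68148801 to 68565200) held 0. These ranks were looked up after the values were seen.

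**Figure D2:**
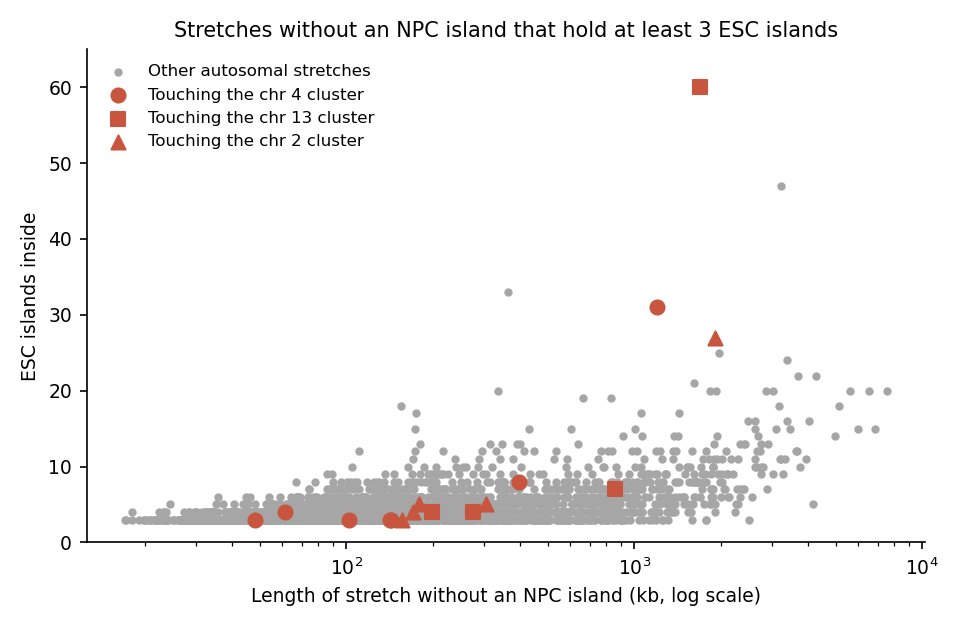
Each point is an autosomal stretch between neighbouring NPC islands that holds at least 3 ESC islands, by its length (horizontal axis, kb, log scale) and the number of ESC islands inside (vertical axis); coloured symbols touch a Zfp cluster. The chromosome 13 stretch stands at the top with 60 ESC islands in 1690.2 kb, and those of chromosomes 4 and 2 hold 31 and 27.

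Few ESC islands of the clusters overlapped an NPC island. Across all nuclear chromosomes 39.8% of ESC islands did so, by at least 1 base. In the clusters 19 of 202 did (9.41%, exact interval 5.76% to 14.3%), compared with 40.6% in the rest of the 3 chromosomes. This share depends on how many NPC islands there are to meet, 6.71 per Mb in the clusters against 19.7 in the rest. It is thus not separate from the low number of NPC islands in the clusters. The share was 14.9% (10 of 67) on chromosome 4, 8.14% (7 of 86) on chromosome 13 and 4.08% (2 of 49) on chromosome 2, against 38.9%, 34.9% and 45.4% in the rest. By bases, 12.8% of the ESC-covered sequence of cluster islands lay in NPC islands, against 53.3% in the rest. Without the last 250 kb, the overlapped share of ESC islands was 5.29% and that of their bases 3.72%.

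NPC islands of the clusters were shared about as often as elsewhere. Across all nuclear chromosomes 34.7% of NPC islands overlapped an ESC island. In the clusters 19 of 57 did (33.3%, 21.4% to 47.1%), against 34.3% in the rest of the 3 chromosomes. On chromosome 13 it was 7 of 13 and on chromosome 2 it was 2 of 16. The small number of NPC islands makes these shares wide, from 25.1% to 80.8% on chromosome 13 and from 1.55% to 38.3% on chromosome 2. Among NPC islands of at most 2000 bp, 7 of 12 in the clusters were overlapped, 6 of them on chromosome 13, against 32.8% in the rest.

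In the rest of the 3 chromosomes wider ESC islands were overlapped more often, so the share was also taken within width classes. Among ESC islands of at most 2000 bp, 3 of 95 in the clusters (3.16%, 0.656% to 8.95%) overlapped an NPC island, against 14.8% in the rest of the 3 chromosomes. From 2200 to 7800 bp it was 11 of 93 (11.8%, 6.05% to 20.2%) against 44.2%. From 8000 bp it was 5 of 14 (35.7%, 12.8% to 64.9%) against 89.3%. The share was thus lower in the clusters in each class. Each class meets the same low number of NPC islands, and classes of ESC width do not remove that dependence. Of the 12 ESC islands of at least 8000 bp on chromosome 4, 8 had no NPC counterpart. Across the clusters, the overlapped ESC islands had a median width of 4800 bp and the others 2000 bp, close to the 5000 and 2200 bp of the rest of the 3 chromosomes.

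**Figure D3:**
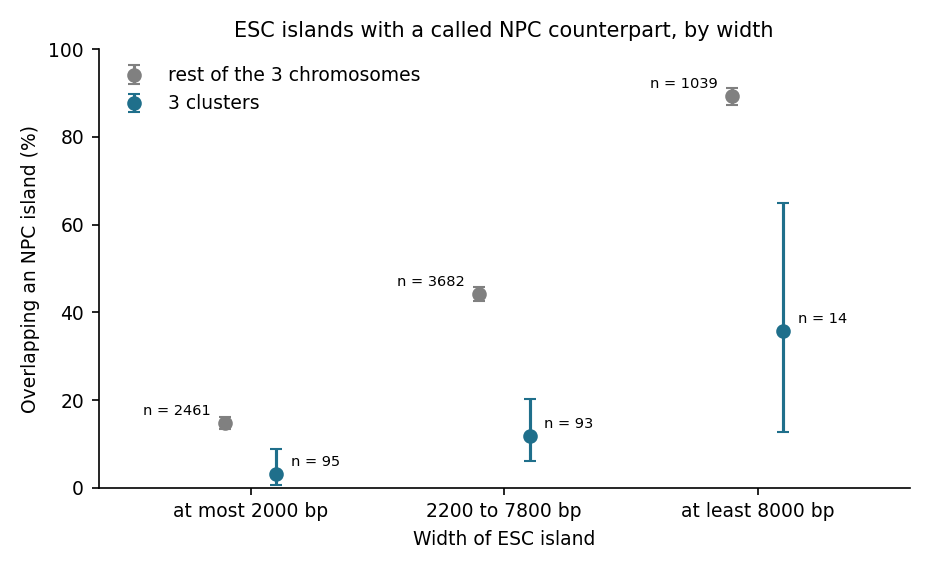
Percent of ESC islands that overlap an NPC island (vertical axis) in 3 classes of island width, in the Zfp clusters and in the rest of chromosomes 4, 13 and 2; bars are exact 95% intervals and n is the number of islands. The cluster values of 3.16%, 11.8% and 35.7% lie below the 14.8%, 44.2% and 89.3% of the rest. The clusters also had fewer NPC islands per Mb to overlap, 6.71 against 19.7.

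ESC islands without an NPC counterpart lay farther from the nearest NPC island in the clusters. This distance depends on how many NPC islands there are, so it is not separate from their low number there. The median distance was 165.4 kb for the 183 such islands, against 19.4 kb in the rest of the 3 chromosomes. It was 304 kb on chromosome 13, 95.4 kb on chromosome 4 and 78 kb on chromosome 2. More than 100 kb separated 105 of the 183 (57.4%) from any NPC island, against 16.9% in the rest. In the other direction, the 38 NPC islands without an ESC counterpart lay a median of 6.7 kb from an ESC island, and none was more than 87.6 kb away. In the rest of the 3 chromosomes that median was 18.2 kb, and 7.83% of such islands lay more than 100 kb away.

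The clusters differed from each other in the width of their ESC islands. On chromosome 4 the median was 3800 bp (3400 to 4800), above the 3000 bp of the rest, and widths ran from 1400 to 23200 bp. On chromosome 13 the median was 2200 bp (2000 to 2600) against 2600 bp. On chromosome 2 it was 1600 bp (1400 to 1600) against 3200 bp, and 45 of 49 islands were at most 2000 bp wide. Of those 49, 30 (61.2%) measured exactly 1400 or 1600 bp, against 9.31% in the rest of chromosome 2. This uniform width was noticed after the values were seen, and the widths come in steps of 200 bp by the way islands are called. Median NPC widths were 4000, 2200 and 5500 bp on chromosomes 4, 13 and 2, against 4800, 3400 and 4400 bp in the rest.

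In reads per kb, ESC islands of the clusters had higher medians than those of the rest of their chromosomes, and the gap was smaller among islands without an NPC counterpart. These medians were not compared within width classes. By median, the cluster islands were narrower than the rest on chromosomes 13 and 2 and wider on chromosome 4. Density, the reads per kb of island, had a median of 120 in the chromosome 4 cluster (109.7 to 125.5) against 93.9 in the rest. On chromosome 2 it was 108 (97.2 to 117) against 91.7, and on chromosome 13 it was 103 (94.7 to 112) against 93.8, where the intervals of cluster and rest overlap. At least 120 reads per kb were found in 34 of 67 ESC islands of the chromosome 4 cluster (50.7%), against 27.7% in the rest of that chromosome. This cut equals the median of that cluster. On chromosome 13 the share was 29.1% against 30.1% in the rest, and on chromosome 2 it was 30.6% against 26.0%. ESC islands without an NPC counterpart had higher medians than overlapped ones in both places, though in the clusters the intervals of the 2 overlap. Those of the clusters had a median of 111 reads per kb (104 to 115), those of the rest of the 3 chromosomes 104 (102 to 106), and these intervals overlap. Overlapped ESC islands had medians of 102 (78.2 to 127.5) and 84.3 (83.5 to 85.2). In NPC the medians were 79.9, 63.8 and 73.0 reads per kb on chromosomes 4, 13 and 2, against 77.2, 74.6 and 78.1. The densest ESC islands reached 197.5 reads per kb on chromosome 4 (145230001 to 145231600), 219 on chromosome 13 (65585401 to 65586400) and 169 on chromosome 2 (176767401 to 176768200). None of these 3 overlapped an NPC island. The densest NPC islands, out of fewer islands, were lower. They reached 114 reads per kb on chromosome 4 (146748001 to 146749000), 125 on chromosome 13 (67824601 to 67825200) and 144 on chromosome 2 (177105601 to 177106600). The one on chromosome 13 overlapped an ESC island. Lower NPC density was not particular to the clusters: in the rest of the 3 chromosomes, 1.61% of NPC and 27.6% of ESC islands had at least 120 reads per kb. Scaled to 1000000 island reads, the cluster medians came to 6.15 per kb (ESC) and 3.14 per kb (NPC), compared with 5.19 and 3.16 in the rest of the 3 chromosomes.

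**Figure D4:**
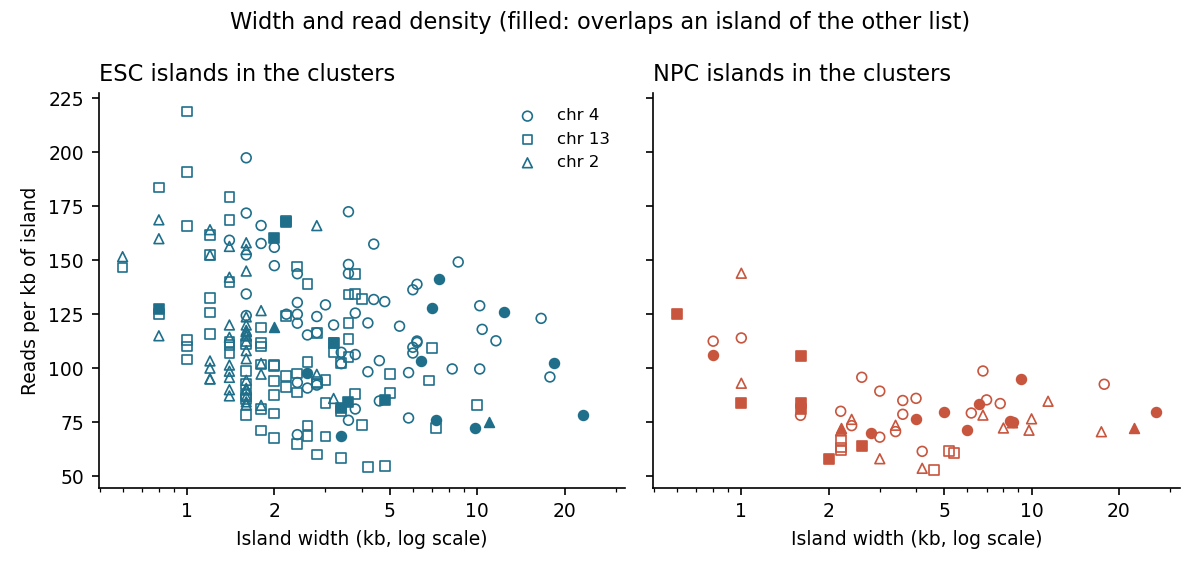
Width (horizontal axis, kb, log scale) and reads per kb (vertical axis) of each ESC island (left) and NPC island (right) in the 3 clusters; symbols give the chromosome and filled symbols overlap an island of the other list. The ESC islands of chromosome 2 gather at 1.4 and 1.6 kb, and 19 of 202 ESC and 19 of 57 NPC symbols are filled.

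As a share of all island reads, the clusters held less in NPC than in ESC. Cluster islands, counted whole where they cross a limit, held 4051 reads per 1000000 island reads (RPM) in ESC and 974 RPM in NPC, a ratio of 0.240. The chromosome 13 cluster went from 1268 to 89.7 RPM, a ratio of 0.0707. Chromosome 4 went from 2269 to 539 RPM (0.238) and chromosome 2 from 514 to 346 RPM (0.672). In the rest of chromosomes 4, 13 and 2 the ratios were 1.12, 0.917 and 1.08. Reads that fell outside called islands are missing from these sums.

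Merging the islands of both lists gave 239 regions in the clusters, of which 183 were called in ESC only, 38 in NPC only and 18 in both. Over all nuclear chromosomes there were 70434 regions, of which 24412 were ESC only, 31544 NPC only and 14478 in both. In the rest of the 3 chromosomes the 12677 regions split into 4264, 5810 and 2603. The 3 ESC-only regions with most reads on chromosome 4 were 147002601 to 147019200 with 2043 reads over 16.6 kb, 145668401 to 145686200 with 1707 reads over 17.8 kb, and 146343601 to 146353800 with 1315 reads over 10.2 kb. On chromosome 13 they held 829, 765 and 641 reads, at 66510401 to 66520400, 65842801 to 65849800 and 66278401 to 66285200, all within the stretch without an NPC island. The first of these was also the widest ESC island of that cluster, at 10 kb. On chromosome 2 the leading ones were smaller, with 465, 275 and 272 reads, at 176857601 to 176860400, 176615001 to 176618200 and 177107601 to 177110400.

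NPC-only regions with most reads lay in the last 250 kb on chromosomes 4 and 2, apart from 1 that began just before it. On chromosome 4 they were 147421801 to 147439600 with 1647 reads, 147440401 to 147447200 with 671 and 147246601 to 147254400 with 652. On chromosome 2 they were 177932401 to 177949800 with 1227 reads, 177998201 to 178009600 with 965, which crosses the limit of the cluster, and 177982201 to 177992200 with 765. On chromosome 13 the leading NPC-only regions held only 327, 321 and 243 reads, at 67511801 to 67517200, 67379601 to 67384800 and 67063001 to 67067600.

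Of the 18 regions called in both lists, 16 took a lower share of the island reads in NPC than in ESC. Scaled instead by the reads in regions called in both lists, which raises every log2 value by 0.41, 13 of 18 were below 0 and 5 above (43.7% above over all such regions), and 6 were at or below -1 (19.1%). Over all 14478 regions called in both lists, 28.1% had a log2 NPC over ESC in RPM at or below -1 and 22.1% had one above 0. In the clusters 10 of 18 were at or below -1 and 2 were above 0. The median log2 was -1.16 (-1.95 to -0.37) with an SD across regions of 1.33, against -0.52 in the rest of the 3 chromosomes, whose median lies inside that interval. By reads per kb, scaled to island reads, the median was -0.84, with values from -1.49 to -0.28, against -0.52 in the rest. Without scaling, the median was -0.39, against -0.076 in the rest. By cluster the unscaled median was 0.031 on chromosome 4, -0.49 on chromosome 13 and -0.38 on chromosome 2, so the sign depends on the scaling on chromosome 4.

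The lowest value belonged to 146602801 to 146621200 on chromosome 4, where an ESC island of 18.4 kb with 1881 reads met an NPC island of 0.8 kb with 85 reads, a log2 of -4.91 (-5.24 to -4.60). Per kb of called island and without scaling, the difference was small there, with 102 ESC and 106 NPC reads per kb, while the called widths differed. Scaled to island reads, the log2 of these densities was -0.39. Next on chromosome 4 came 147448601 to 147463800, with 1705 and 428 reads and a log2 of -2.44, and 145019601 to 145032000, with 1564 and 872 reads and a log2 of -1.29. The highest there were 147481001 to 147490000, at 0.90 with 254 and 644 reads, 147294201 to 147298200, at -0.05 (-0.31 to 0.20), and 147373001 to 147399800, at -0.20. Both of these are above 0 under the scaling by shared regions. The latter held the widest island of either list in the clusters, 23.2 kb with 1814 reads in ESC and 26.8 kb with 2141 reads in NPC.

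On chromosome 13 all 7 regions called in both lists had values below 0, from -2.70 to -0.72, with a median of -1.70. The lowest were 67824201 to 67827400 with 358 ESC and 75 NPC reads (-2.70), 67581801 to 67586600 with 409 and 134 (-2.05), and 67033201 to 67035400 with 369 and 130 (-1.95). The highest were 67626001 to 67627200 with 102 and 84 reads (-0.72), 67843801 to 67847400 with 304 and 166 (-1.32), and 67454601 to 67456600 with 321 and 169 (-1.37). In 6 of the 7 the ESC island was the wider. The widest NPC island of this cluster, of 5.4 kb, was the NPC-only region that begins at 67511801.

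On chromosome 2 the 2 shared regions differed in sign. At 176863601 to 176866400, 238 ESC and 159 NPC reads gave a log2 of -1.03 (-1.32 to -0.73). Its NPC island bounds the long stretch without one. At 177877601 to 177900200, in the last 250 kb, 825 ESC reads over 11 kb and 1637 NPC reads over 22.6 kb gave 0.55 (0.42 to 0.67). These were the widest islands of the 2 lists in that cluster, and per kb they held 75 and 72.4 reads.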

How the data were processed

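Per the submitters' processing notes the tools were SICER 1.1, which calls islands, the aligner Bowtie 0.12.7, CASAVA 1.8.2, bedtools 2.10.1 and SAMtools 0.1.7, on build mm9. SICER's settings, read from the list names, were 200 bp windows, gaps up to 600 bp and an FDR of 0.01. Each list gives an island's chromosome, start, end and a whole number, read as its raw count of H4K16ac reads, as the authors deposited it without scaling to depth or input. The treatment of duplicate reads and of the input is not given in the sources used here. The ESC list sums to 17935144 reads and the NPC list to 24386370. Total depth is unknown. Reads can be PCR copies of 1 molecule, and intervals of read ratios cover counting error only.

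Ends were read as last bases and positions count from 1. Chromosomes were measured from base 1 to the last island. Intervals were exact Poisson (numbers), Clopper-Pearson (shares, ratios of numbers and of reads) or from order statistics (medians), at 95%. The clusters, the comparisons and the width classes were chosen with earlier results of these data known. The regions named were, per cluster, the 3 ESC-only and 3 NPC-only ones with most reads, the 3 highest and lowest log2 values among those called in both, and the widest and densest island and the longest stretch without one, per list. Promoters were compared with edlib 1.3.9.post1, 1 per gene; 12 of 16, 21 of 24 and 9 of 9 Zfp genes of the chromosome 4, 13 and 2 runs had one. A run joins Zfp-named genes with at most 5 other coding genes between them. Alternatives moved the limits by 250 kb, raised the read and width minimum, merged gaps of 2000 bp, equalised list lengths, required 50% overlap, rescaled ratios or changed what the clusters were set beside. Checks by gene were not run. The overlap code was tested on simulated data: 8000 of 8000 counterparts were found with 0 false overlaps, and overlaps in the real lists equalled those of bedtools 2.31.1. Python 3.11.15, numpy 2.4.6, pandas 2.3.3, scipy 1.17.1 and matplotlib 3.10.9 were used.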

Additional observations from a re-analysis of the deposited data

How the results depend on the processing

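Of 90 values recomputed for the 3 clusters together, 69 stayed inside the 95% interval of the reported one and 21 left it. The ratio of ESC-covered bases, clusters over surroundings, turned through 1, from 1.03 beside the rest of the chromosomes to 0.657 beside the 5 Mb on each side. The cause of these shifts was not tested beyond what each setting itself removes. Moving the limits inward by 250 kb gave 3.86 NPC islands per Mb, 0.957% of bases covered in NPC, a median NPC width of 2200 bp and 5.29% of ESC islands overlapped. Leaving out only the last 250 kb (chosen after seeing the data) gave 3.74 islands per Mb, 0.994%, 2200 bp and 5.29%. Moving the limits outward gave 9.80 NPC islands per Mb and 5.46% covered. Keeping islands with at least the first quartile of reads gave 17.2 ESC and 4.12 NPC islands per Mb, median widths of 3000 and 6200 bp and a median ESC density of 115 reads per kb. NPC islands per Mb were 4.82 with gaps merged and 5.06 with equal list lengths. Beside the 5 Mb on each side, the ratio of islands per Mb was 1.15 in ESC and 0.207 in NPC, and that of NPC-covered bases fell from 0.273 to 0.141. Scaling by reads in regions called in both lists raised each log2 by 0.41, which left 13 of 18 shared regions below 0. A minimum of 1000 bp, 50% overlap, other scalings of the log2 and chromosomes counted from the first island moved no value outside its interval. No paired analysis was possible because the labels carry no replicate numbers and each cell type has 1 library. Unknown depth limits the reading of sequence without a called island.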
